A study of Mus with 2 samples.

Results

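Respiratory complex I is described here through the genes whose symbols begin with Nduf, the names given to its nuclear-encoded subunits and to a set of its assembly factors. The members were taken as all rows of the count matrices with such a symbol, and 45 of 27998 gene rows qualified. No row for a pseudogene of these genes, with a symbol containing -ps, was present, so none was left out. All 45 were matched by symbol to RefSeq on GRCm38.p6, where all 45 are protein coding, lie on 16 chromosomes with at most 6 on 1 of them (chromosome 17), and include 2 on the X chromosome.

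Hematopoietic stem cells (HSCs) were sorted from tibias and fibulas with the immunophenotype LSK/FLT3-/CD150+/CD48-, meaning cells without lineage markers that carry Sca-1, c-Kit and CD150 and lack FLT3 and CD48. They came from mice aged 8 to 12 weeks that were Mx1-Cre; Id2+/+ or Mx1-Cre; ID2Δ/Δ, called Id2+/+ and Id2-deleted below. Mx1-Cre is a recombinase induced through interferon signalling after poly(I:C), which the study gave before the sort, and its promoter acts in many interferon-responsive cells besides HSCs. Each genotype was 1 library of 1000 sorted cells pooled from 5 mice and made with 10x Genomics droplets, in which a transcript receives the barcode of its cell and an identifier of its own (UMI), so that UMIs count molecules. One clause of the labels names Id2+/+ bones as the source of the Id2-deleted cells, whereas the title and genotype field state the deletion. With a single pool per genotype no test between genotypes was possible. Every interval below is a 95% interval for counting error only or, for shares of cells, for the sampling of cells from 1 pool. None covers the spread between mice.

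Complex I is the entry point of the mitochondrial respiratory chain. It takes electrons from NADH, passes them along iron-sulfur clusters in an arm that projects into the matrix, and hands them to ubiquinone while an arm in the inner membrane pumps protons. Its catalytic core is encoded partly in the nucleus and partly in mitochondrial DNA, and accessory subunits surround that core and are added with the help of assembly factors. Quiescent HSCs are known for relying little on oxidative respiration, and the study asked whether HSCs without Id2, an inhibitor of DNA binding, leave quiescence and change their metabolism.

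The libraries held 8612217 and 17140713 UMIs in the order Id2+/+ and Id2-deleted, an order kept throughout. After a limit on mitochondrial UMIs, 333 and 625 called cells remained, and 1 barcode was shared by called cells of both. Clusters made without the Nduf genes gave 35 and 156 erythroid-like cells, 27 and 40 neutrophil-like cells, and 9 and 13 haemoglobin-rich barcodes. The other 262 and 416 cells of the sort are called retained cells, since HSC markers did not stand out in all of their clusters. Of them, 14 and 98 cells formed a cluster in which 0 HSC markers stood out, led by Vpreb3, Ung and Vpreb1, and 46 and 77 cells formed a pair of platelet-like clusters in which 0 did so (over 0.5 higher on the log2 scale than in other cells and found in 10% of cells or more). The median retained cell held 7081 UMIs and 9663 UMIs. Id2 itself had 22 UMIs in retained Id2+/+ cells (10.3 CPM, UMIs per 1000000 in total) and 0 in Id2-deleted ones, where a count of 0 allows up to 3 counts (0.640 CPM). All 10 HSC markers had UMIs in retained cells, summing to 1065 and 820 CPM. Markers of other lineages were also present there: 11 of 11 erythroid markers summed to 3034 and 2655 CPM, 9 of 9 neutrophil markers to 1069 and 638 CPM, and 6 of 6 megakaryocyte and platelet markers to 1341 and 2053 CPM, and the part of these in the results was not tested. RNA from broken cells, judged by haemoglobin UMIs, made up an estimated 10.5% and 5.41% of the UMIs of retained cells.

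Retained cells of the Id2-deleted library carried a larger share of Nduf RNA than those of the Id2+/+ library. The members summed to 8270 CPM (95% interval 8148 to 8393) in Id2+/+ retained cells and to 10105 CPM (10014 to 10196) in Id2-deleted retained cells. The ratio of Id2-deleted to Id2+/+ was 1.22 (1.2 to 1.24). Of the 45 members, 44 had at least 20 UMIs over the retained cells of both libraries and 42 had at least 200. Among these 44, 43 had a ratio above 1, against 41.9% of all genes, and the interval of the ratio lay above 1 for 34 and below 1 for 0. Over all 10458 genes with at least 20 UMIs, 10.2% had an interval above 1 and 13.3% had one below 1.

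A ratio of at least 1.2 was reached by 27 of the 44 members, against 16.6% of all genes at that count. A ratio of at most 1/1.2 was reached by 0 of the 44 members, against 32.1% of all genes. Without the cluster led by Vpreb3, a choice made after seeing the data, the summed ratio was 1.23 and 28 members reached 1.2 (17.9% of genes). The count was lower in other subsets, at 14 in cells of 6000 to 10000 UMIs (20.6% of genes), 15 in cells with Xist alone (22%) and 10 in clusters without a name (27.4%). In those clusters the share of members, 22.7%, was below that of all genes. With the Id2-deleted cells set to the mix of cell classes of Id2+/+ the count was 16 (15.2% of genes). Since the members are well detected, the same counts were set against the 4605 genes with at least 200 UMIs. Here 27 of 42 members reached the upper fold and 34 of 42 had an interval above 1, against 17.6% and 20.2% of genes, and 0 of 42 reached the lower fold or had an interval below 1, against 15.9% and 13.6%. The median log2 ratio was 0.29 for the members, with a middle 50% of 0.21 to 0.36, and -0.08 for all genes, with a middle 50% of -0.37 to 0.15. Among genes with at least 200 UMIs the medians were 0.29 and 0.03. Scaling by TMM or by median-of-ratios size factors in place of total UMIs shifted every log2 ratio by 0.11 and 0.14, members and other genes alike, so that the distance of the members from the other genes stayed as it was.

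**Figure D1:**
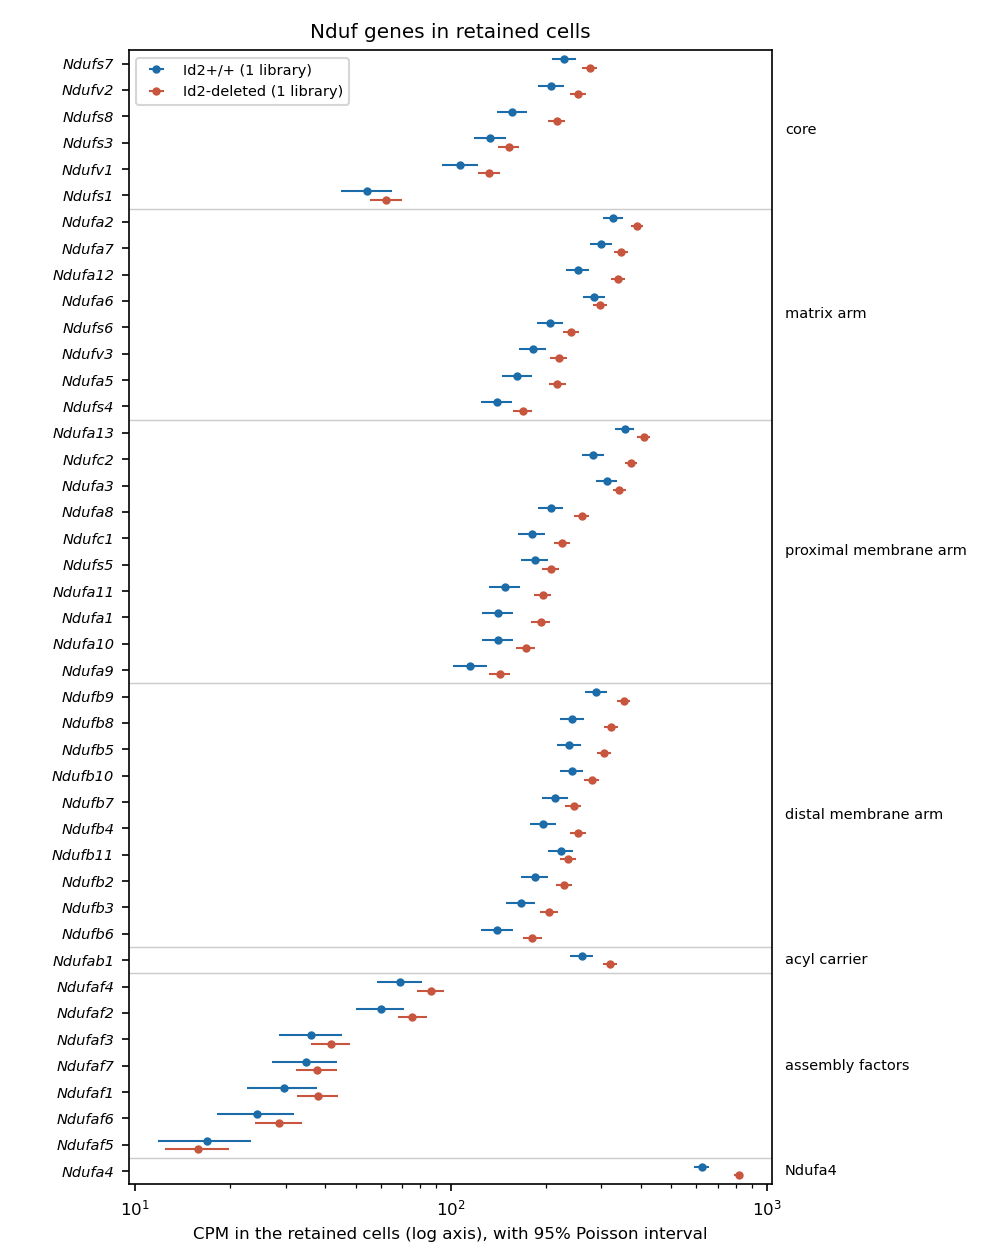
Level of each of 43 Nduf genes in the retained cells of the Id2+/+ library (blue) and of the Id2-deleted library (red), in CPM on a log axis, grouped by role, with bars for the 95% Poisson interval. The levels run from 16.9 and 15.8 CPM for Ndufaf5 to 624 and 816 CPM for Ndufa4, and the Id2-deleted point lies to the right for every gene except Ndufaf5.

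The size of the shift was alike across the roles of the members. The 7 nuclear core subunits summed to 1064 and 1303 CPM, a ratio of 1.22 (1.17 to 1.28). The 8 accessory subunits of the matrix arm summed to 1851 and 2217 CPM, a ratio of 1.2 (1.15 to 1.24). The membrane arm showed the same size on both sides. Its 10 proximal accessory subunits, nearer the matrix arm, summed to 2066 and 2518 CPM (ratio 1.22, 1.18 to 1.26), and its 10 distal ones to 2134 and 2609 CPM (1.22, 1.18 to 1.27). The 7 assembly factors, which build the complex without staying in it, summed to less, at 270 and 324 CPM, or 3.22% of all Nduf UMIs, with a ratio of 1.2 (1.09 to 1.32). The intervals of all these role groups overlapped.

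Among the core subunits, Ndufv1 holds the site where NADH is oxidised and Ndufv2 carries an iron-sulfur cluster beside it. Ndufv1 stood at 107 CPM (229 UMIs) and 132 CPM (619 UMIs), a ratio of 1.23 (1.06 to 1.44). Ndufv2 stood at 208 and 253 CPM, a ratio of 1.22 (1.09 to 1.36). Ndufs1, the largest core subunit of the matrix arm and a carrier of several iron-sulfur clusters, was the lowest of the core at 54.4 and 62.3 CPM. Its ratio of 1.15 (0.921 to 1.43) had an interval that included 1.

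Ndufs7 carries the last iron-sulfur cluster before ubiquinone. It had the most UMIs of the core (488 and 1292), or 229 and 276 CPM with a ratio of 1.21 (1.09 to 1.34). Ndufs8 carries the iron-sulfur clusters through which electrons reach that last one. It stood at 157 CPM (140 to 174) in Id2+/+ and 217 CPM (204 to 231) in Id2-deleted retained cells, and its ratio of 1.39 (1.22 to 1.57) was the highest of all 44 members, but was 1.05 when only retained cells of 6000 to 10000 UMIs were used. Ndufs3, a core subunit without a cofactor, had the lowest core ratio, at 133 and 152 CPM (1.14, 0.996 to 1.32), with an interval that included 1.

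In the matrix arm, Ndufa2, a subunit with a thioredoxin-like fold, had the most UMIs (696 and 1821). It stood at 326 and 389 CPM, a ratio of 1.19 (1.09 to 1.30). Ndufa5 had the highest ratio of this group, at 162 and 218 CPM (1.34, 1.19 to 1.52), and Ndufs6, which binds zinc and joins late in assembly, stood at 206 and 241 CPM (1.17, 1.05 to 1.31). Ndufa6, a subunit of the LYR family that docks an acyl carrier protein, had nearly the same level in both libraries, at 285 CPM (262 to 308) and 297 CPM (282 to 313). Its ratio of 1.04 (0.949 to 1.15) was the lowest of the matrix arm.

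In the membrane arm, Ndufa13, also known as GRIM-19, had the most UMIs of the proximal group. It stood at 355 and 408 CPM, a ratio of 1.15 (1.06 to 1.25). Ndufa3, a small membrane subunit, had the lowest ratio of that group, at 312 and 342 CPM (1.10, 1.001 to 1.2). In the distal group Ndufb9, another LYR protein, had the most UMIs and stood at 289 and 353 CPM (1.22, 1.12 to 1.34). Ndufb8 had the highest distal ratio, at 243 and 322 CPM (1.33, 1.2 to 1.47). Ndufab1, the mitochondrial acyl carrier protein, which also serves fatty acid synthesis and iron-sulfur cluster assembly, stood at 260 and 319 CPM (1.23, 1.11 to 1.36).

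The 2 X-linked members lay near opposite ends of the range. Ndufa1 (chrX:37187588-37191238, GRCm38.p6), a small membrane subunit needed for assembly, stood at 141 CPM (125 to 157) and at 192 CPM (180 to 205), with a ratio of 1.37 (1.2 to 1.57). That ratio was 1.005 in clusters without a name and 1.17 with no cell type removed. It was 1.35 in cells with Xist alone and 1.37 in cells with Y-linked UMIs alone. Ndufb11 (chrX:20615326-20617619), of the distal membrane arm, stood at 223 CPM (203 to 244) and at 235 CPM (221 to 249), with a ratio of 1.06 (0.947 to 1.18). The intervals of Ndufa1 and Ndufb11 over all retained cells did not overlap.

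The 7 assembly factors were low in level, from 15.8 to 86.6 CPM over both libraries. The interval of the ratio lay above 1 for 2 of them, against 10.2% of all genes with at least 20 UMIs. Ndufaf4 had the most UMIs of them, at 68.9 and 86.6 CPM (1.26, 1.04 to 1.53). Its ratio was 0.766 in cells with Y-linked UMIs alone, 1.66 in cells with Xist alone and 0.945 in cells of 6000 to 10000 UMIs. Ndufaf2, a paralogue of Ndufa12 that occupies its place during assembly, stood at 128 UMIs and 354 UMIs, the latter 75.5 CPM (1.26, 1.03 to 1.55). Ndufaf1, of the complex that assembles the membrane arm, stood at 29.5 and 38 CPM (1.29, 0.960 to 1.74), with a ratio of 2.06 in cells with Xist alone and 0.981 in the unnamed clusters of retained cells. Ndufaf7, a methyltransferase, stood at 34.7 and 37.8 CPM (1.09, 0.826 to 1.45). Ndufaf5, chosen for mention after its values were seen, was the 1 member with a ratio below 1, at 36 and 74 UMIs and a ratio of 0.936 (0.620 to 1.44), which counting error alone could span.

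Ndufa4 (chr6:11900372-11907450), named as a complex I subunit but now assigned to complex IV, was the most abundant member. It stood at 624 CPM (591 to 658; 1331 UMIs) and 816 CPM (790 to 842; 3823 UMIs) and made up 7.93% of all Nduf UMIs. Its ratio was 1.31 (1.23 to 1.39), and without it the members summed to a ratio of 1.21 (1.19 to 1.24). Its hypoxia-induced paralogue Ndufa4l2 (chr10:127509274-127517154), known as a HIF-1 target, had 0 UMIs in all cell kinds and empty droplets of both libraries. In retained cells a count of 0 allows up to 1.41 and 0.640 CPM, which is 3 counts in either library. The intervals of 5 members excluded the summed ratio of 1.22, with Ndufs8 and Ndufa4 above it and Ndufa3, Ndufa6 and Ndufb11 below it. Besides Ndufaf4, some named members with an interval above 1 had a ratio below 1 in a subset of retained cells. These were Ndufv2 in HSC-like cells (0.985), Ndufs6 in cells of 6000 to 10000 UMIs (0.958), Ndufa2 and Ndufaf2 in the unnamed clusters (0.947 and 0.975), Ndufa13 in platelet-like cells (0.972) and Ndufa3 in cells with Xist alone (0.896).

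**Figure D2:**
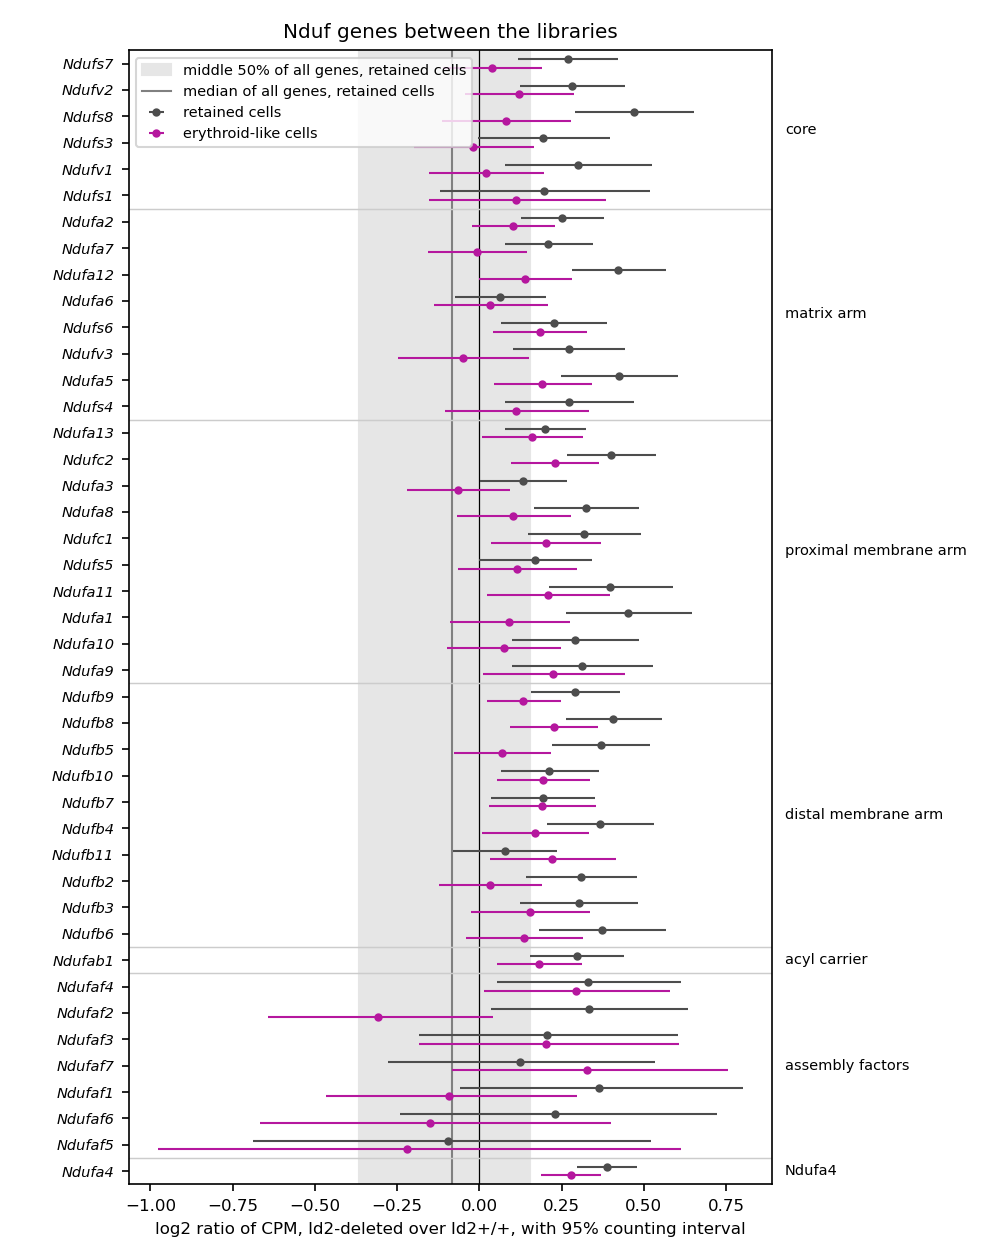
Log2 ratio of CPM, Id2-deleted over Id2+/+, for each of 43 Nduf genes in retained cells (dark grey) and in erythroid-like cells (magenta), with bars for the 95% counting interval, the middle 50% of all genes shaded and the median of all genes as a grey line. In retained cells most members lie to the right of the shaded range, and 41 of 43 lie further right in retained cells than in erythroid-like cells, against 49.8% of the genes tested in both kinds.

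The remaining genes of the respiratory chain did not all share the shift. The 7 complex I subunits encoded in mitochondrial DNA summed to 4376 and 3639 CPM in retained cells, a ratio of 0.832 (0.811 to 0.853), so the nuclear and mitochondrial parts of the complex lay on opposite sides of 1. This direction held with TMM (0.896) and median-of-ratios (0.913) scaling and in erythroid-like cells (0.796, 0.776 to 0.817). Of the 7, 6 had an interval below 1 and 1 above, mt-Nd3 having the lowest ratio of those with at least 200 UMIs (271 and 188 CPM, 0.692, 0.622 to 0.770) and mt-Nd4l the highest (60.5 and 82.4 CPM, 1.36, 1.11 to 1.68). The reading frames of mt-Nd4l and mt-Nd4 overlap, and mt-Nd4 stood at 0.803 (0.767 to 0.840), so the split of UMIs between them is uncertain. The other 11 complex I assembly factors in the files, which are not named Nduf, summed to 425 and 407 CPM (0.958, 0.885 to 1.04), a ratio that crossed to 1.03 and 1.05 under the other scalings. The interval lay above 1 for 0 of the 11 and below 1 for 1, Timmdc1 (35 and 39 UMIs, 0.507, 0.313 to 0.825), and the highest ratio was that of Nubpl (20 and 69 UMIs, 1.57, 0.943 to 2.73), both named for their values. Tmem70 had the lowest of their ratios among those with at least 200 UMIs (0.906, 0.766 to 1.07) and Aifm1 the highest (1.04, 0.810 to 1.33).

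The nuclear subunits of the proton-pumping complexes downstream and of ATP synthase had ratios close to that of the Nduf genes. Complex III, which oxidises ubiquinol, summed to 2976 and 3743 CPM (1.26, 1.22 to 1.29), with an interval above 1 for 9 of 9 genes, from Uqcrc1 (1.11) to Uqcrq (1.46). Complex IV, the oxidase, summed to 6030 and 7242 CPM (1.2, 1.18 to 1.23), with an interval above 1 for 10 of 11 genes, Cox5a being the highest (1.38) and Cox7a2l, a supercomplex assembly factor, lying below 1 (0.923, 0.863 to 0.988). ATP synthase summed to 7717 and 9144 CPM (1.18, 1.16 to 1.21), with an interval above 1 for 12 of 15 genes. The ratios ran from Atp5k (1.02, 0.925 to 1.12) to Atp5o (1.35, 1.23 to 1.48).

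Genes that feed or regulate the chain lay closer to 1. Complex II, which enters electrons from succinate, summed to 687 and 774 CPM (1.13, 1.06 to 1.2), with 2 of 4 intervals above 1, Sdhc being the highest (1.23) and Sdha the lowest (1.04). Of 14 genes of the citric acid cycle and its NADH supply, 2 had an interval above 1 and 1 below, with a summed ratio of 1.06 (1.02 to 1.10), from Cs, citrate synthase (0.732, 0.588 to 0.914), to Dlat (1.26, 0.966 to 1.66). Those above were Mdh1 (1.13) and Mdh2 (1.19), named for their values. Of 12 regulators of mitochondrial biogenesis with at least 20 UMIs, 1 had an interval above 1 and 1 below. The summed ratio over all 13 listed was 1.02 (0.953 to 1.10). Nrf1, an activator of respiratory chain genes, stood at 1.31 (0.991 to 1.74) and Gabpb1 at 0.938 (0.748 to 1.18). The interval above 1 was that of Tfam (1.24, 1.03 to 1.5) and the interval below 1 that of Esrra (0.646, 0.430 to 0.978), both named for their values. All these lists of other respiratory chain and related genes were described by their counts and sums alone. Over all genes with at least 20 UMIs, 10.2% had an interval above 1 and 13.3% below. At 200 UMIs or more the shares were 20.2% and 13.6%. The counts for the citric acid cycle and biogenesis lists lay near these shares.

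Erythroid-like and neutrophil-like cells held more Nduf RNA than the retained cells of the same library. They were also deeper, with median UMIs of 37549 and 40038.5 in erythroid-like and 17626 and 17986.5 in neutrophil-like cells. Retained cells had medians of 7081 and 9663 UMIs. Among retained cells, those of 12000 UMIs and over held 9477 and 10998 Nduf CPM, against 7367 and 8666 CPM at 6000 to 8000 UMIs. The part of depth in the difference between kinds was not tested. In the Id2+/+ library the members summed to 8270 CPM in retained cells, 11498 CPM (11315 to 11682) in erythroid-like cells and 11311 CPM (11006 to 11622) in neutrophil-like cells, and in the Id2-deleted library to 10105, 12603 (12515 to 12691) and 12122 CPM (11870 to 12378). Erythroid-like cells thus held 1.39 (1.36 to 1.42) and 1.25 (1.23 to 1.26) times the level of retained cells of the same library, and neutrophil-like cells 1.37 (1.33 to 1.41) and 1.2 (1.17 to 1.23) times. Haemoglobin-rich barcodes stood far below, at 826 CPM (640 to 1048) and 1011 CPM (833 to 1215), which is 0.0998 and 0.1 times the level of retained cells. In them the 4 haemoglobin genes took 871166 and 882973 CPM. The level in retained cells lay below that of erythroid-like and neutrophil-like cells beyond counting error in both libraries, whereas those 2 kinds did not differ beyond it in the Id2+/+ library.

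The genotype ratio was smaller in erythroid-like and neutrophil-like cells than in all retained cells together. It was 1.10 (1.08 to 1.12) in erythroid-like cells and 1.07 (1.04 to 1.11) in neutrophil-like cells, and neither interval overlapped that of retained cells (1.2 to 1.24). The erythroid-like cells of the libraries mostly fell in different clusters, with 27 Id2+/+ cells and 0 Id2-deleted cells in one and 0 and 76 in another. In the erythroid-like cluster that held cells of both (8 and 80), the levels were 11462 and 12503 CPM (1.09, 1.05 to 1.13), close to the unnamed clusters of retained cells (1.08, 1.04 to 1.12). In haemoglobin-rich barcodes it was 1.22 (0.897 to 1.68), too wide to place. In erythroid-like cells 3 of 44 members reached a ratio of 1.2 (19.1% of 8790 genes) and 1 reached 1/1.2 (26% of genes), while 16 had an interval above 1 (7.97%) and 0 below (8.46%). Of the 43 members with at least 200 UMIs there, the counts were 3, 1, 16 and 0, against 15.1%, 12.1%, 14.7% and 8.19% of 4260 genes. The member median of the log2 ratio in erythroid-like cells was 0.12, against -0.03 for all genes, at 20 UMIs or more, and 0.12 against 0.05 at 200 UMIs or more, where 31 of 43 members lay above the median of all genes. The ratio was higher in retained than in erythroid-like cells for 42 of 44 members, against 49.8% of 8518 genes with at least 20 UMIs in both kinds. It lay above 1 in retained and below 1 in erythroid-like cells for 7 of 44, against 16.9% of those genes. Whether the ratio differs between the kinds was not tested across animals, which were pooled.

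Empty droplets, barcodes of 1 to 100 UMIs that sample RNA free in the suspension, were also rich in Nduf RNA. The members summed there to 9779 CPM (9683 to 9877) and 13296 CPM (13181 to 13412), with a ratio of 1.36 (1.34 to 1.38), and 32 and 37 of 44 members were higher than in the retained cells of the same library, against 41.3% and 32% of 10458 genes. Erythroid markers in the empty droplets summed to 16025 and 19533 CPM, and neutrophil markers to 7519 and 4252 CPM. After the empty-droplet profile was subtracted from the retained cells the summed ratio was 1.23, as large as before.

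**Figure D3:**
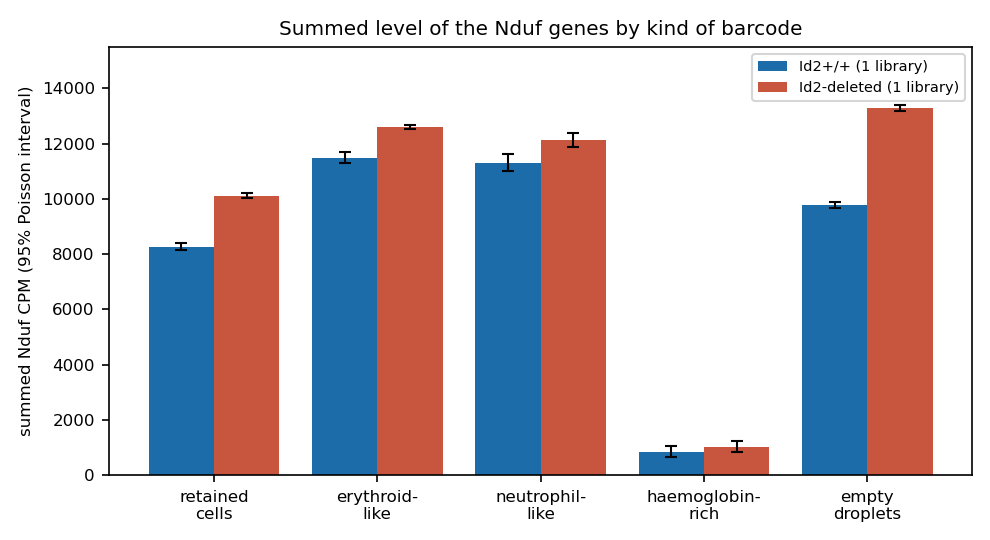
Summed CPM of the Nduf genes in retained cells, 3 other kinds of barcode and empty droplets of the Id2+/+ library (blue) and of the Id2-deleted library (red), with bars from 0 and error bars for the 95% Poisson interval. retained cells stand at 8270 and 10105 CPM, below erythroid-like and neutrophil-like cells of the same library, and haemoglobin-rich barcodes are near 1000 CPM.

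The members differed in how they varied between cell kinds. In the fold of erythroid-like cells over retained cells, 33 of 44 members lay above 1 in both libraries and 5 below 1 in both, against 33.7% and 54.8% of genes. A fold of at least 1.5 in both libraries was reached by 8 of 44, against 14% of 9209 genes, and a fold of at most 1/1.5 by 0, against 33.5%. Of members with at least 200 UMIs, Ndufv1 had the highest fold, from 107 to 247 CPM in the Id2+/+ library (2.30, 1.94 to 2.74) and from 132 to 250 CPM in the Id2-deleted one (1.90, 1.73 to 2.08). It was followed by Ndufb9 (2.01 and 1.81), Ndufa5 (2.04 and 1.74), Ndufs1 (1.92 and 1.82) and Ndufs6 (1.72 and 1.67). Thus the subunit that binds NADH and the large subunit beside it, both low in retained cells, were among those with the largest erythroid excess.

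At the other end of that order, Ndufa6 was lower in erythroid-like cells than in retained cells, at 285 against 249 CPM (0.874, 0.762 to 1.001) and 297 against 255 CPM (0.856, 0.797 to 0.921). Ndufa13 (0.888 and 0.864), Ndufa3 (0.993 and 0.865) and Ndufb11 (0.903 and 0.997) followed. Ndufaf2 stood at 75.5 CPM in retained cells against 55.8 CPM in erythroid-like cells of the Id2-deleted library, and its folds were of 1.15 (0.869 to 1.52) and 0.738 (0.635 to 0.858), on opposite sides of 1.

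Neutrophil-like cells ordered the members otherwise. There the fold over retained cells lay above 1 in both libraries for 26 of 44 members and below 1 for 10, against 18.6% and 64.4% of genes. Among them 7 reached 1.5 in both (6.81% of 8726 genes) while 1, Ndufaf2, reached 1/1.5 (36.2%). Core subunits did not share the excess of the sum, with 0.982 (0.889 to 1.08) and 0.867 (0.805 to 0.932) for their summed fold over retained cells, whereas the distal membrane arm stood at 1.53 (1.44 to 1.62) and 1.34 (1.29 to 1.40). Ndufv1 had neutrophil-like folds of 0.847 (0.595 to 1.18) and 0.844 (0.661 to 1.07), set against its erythroid excess. Ndufa3 went the other way, with 1.78 (1.53 to 2.06) and 1.61 (1.44 to 1.80), and Ndufa1 reached 2.68 (2.21 to 3.24) and 1.87 (1.63 to 2.15). Such clusters were chosen on the expression of these same cells, although not on the Nduf genes, so the folds are a description.

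Within retained cells the content of Nduf RNA varied from cell to cell. To compare cells at 1 depth, each was thinned at random to 5800 UMIs, which left out 66 Id2+/+ retained cells and 0 Id2-deleted retained cells that were shallower. The median retained cell then held 46 Nduf UMIs (middle 50% of 40 to 53.3, 196 cells) and 55 Nduf UMIs (49 to 64, 416 cells). Without thinning the medians were 53 and 92.5. The distributions overlapped widely, from 25 to 76 UMIs and from 26 to 89, and their variance was 1.87 and 2.07 times the mean, where pure sampling of equal cells would give a value near 1. Erythroid-like cells had medians of 68.5 and 73 UMIs, above the upper quartile of the retained cells of the same library.

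Single members were spread over most cells. At the same depth Ndufa4 had a UMI in 93.9% and 98.1% of retained cells, and Ndufaf5 in 9.18% and 9.62%, with medians over the members of 62.2% and 71.0%. For 43 of 44 members the share was higher in Id2-deleted retained cells, and for 3 of them (Ndufs7, Ndufb8 and Ndufa1) the exact binomial intervals were apart, against 45.3% and 0.87% of 10458 genes. The interval lay below that of Id2+/+ for 0 members and for 2.17% of genes. These intervals take the cells of 1 pool as trials, so they describe those cells and do not measure a difference between genotypes. Thinning had also left out 66 shallow cells, all of the Id2+/+ library. Since free RNA also holds these transcripts, a cell with a UMI is not thereby shown to express the gene.

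**Figure D4:**
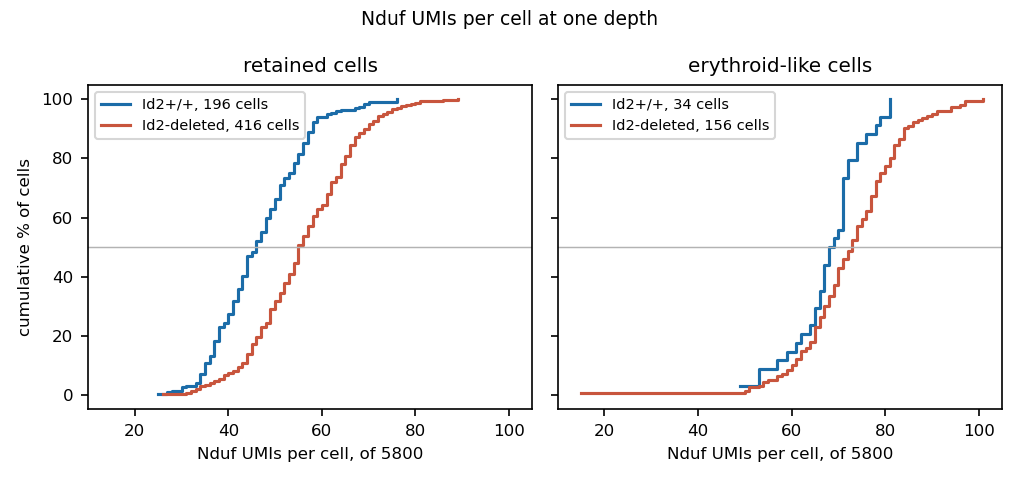
Cumulative percent of cells against the number of Nduf UMIs per cell after thinning each cell to 5800 UMIs, for retained cells (left) and erythroid-like cells (right) of the Id2+/+ library (blue) and the Id2-deleted library (red). The Id2-deleted curve lies to the right in retained cells, with medians of 46 and 55 UMIs, and the curves are closer in erythroid-like cells, at 68.5 and 73.

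Retained cells were not of 1 kind, and Nduf content differed between their clusters. HSC-like cells (185 and 185), named from HSC markers, stood at 7500 CPM (7350 to 7653) and 8832 CPM (8684 to 8981). Platelet-like cells (46 and 77), with megakaryocyte markers, stood at 9352 and 11431 CPM, and clusters without a name (31 and 154 cells), led by histone and mitotic genes or by Vpreb3, Igll1 and Dntt of early lymphoid cells, at 9443 and 10177 CPM. The genotype ratio was 1.18 (1.15 to 1.21) in HSC-like cells, 1.22 (1.18 to 1.26) in platelet-like cells and 1.08 (1.04 to 1.12) in the unnamed clusters. HSC-like cells of the 2 libraries mostly fell in different clusters, 151 Id2+/+ cells in a cluster led by Jun and Fos, early response genes, and 158 Id2-deleted cells in one led by Cd74 and Iigp1, of antigen presentation and the interferon response. In the HSC-like cluster that both shared in similar numbers (28 and 27 cells), led by Meg3 and Procr, the levels were 7352 and 8110 CPM (1.10, 1.03 to 1.19). With the Id2-deleted retained cells set to the class shares of Id2+/+, the summed ratio was 1.17 and 16 members in place of 27 reached 1.2, against 15.2% of genes in that setting.

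The ratio also differed between strata of sex-linked UMIs, while over depth it had no steady order. Retained cells under 6000 UMIs came only from the Id2+/+ library (77 cells, 7546 CPM). In the ranges shared by both the ratio was 1.18 (1.13 to 1.22) at 6000 to 8000 UMIs, 1.11 (1.08 to 1.14) at 8000 to 12000 and 1.16 (1.12 to 1.2) above. In retained cells of 6000 to 10000 UMIs, 14 of 44 members reached 1.2, against 20.6% of genes. Cells with Xist and no Y-linked UMI numbered 84 and 231 and gave a ratio of 1.15 (1.12 to 1.19), those with Y-linked UMIs alone numbered 93 and 90 and gave 1.23 (1.19 to 1.28). Cells with both or neither signal numbered 85 and 95 and gave 1.28 (1.24 to 1.32). Each stratum that held cells of both libraries had a ratio interval above 1, and these strata were compared within the same 2 libraries.

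**Figure D5:**
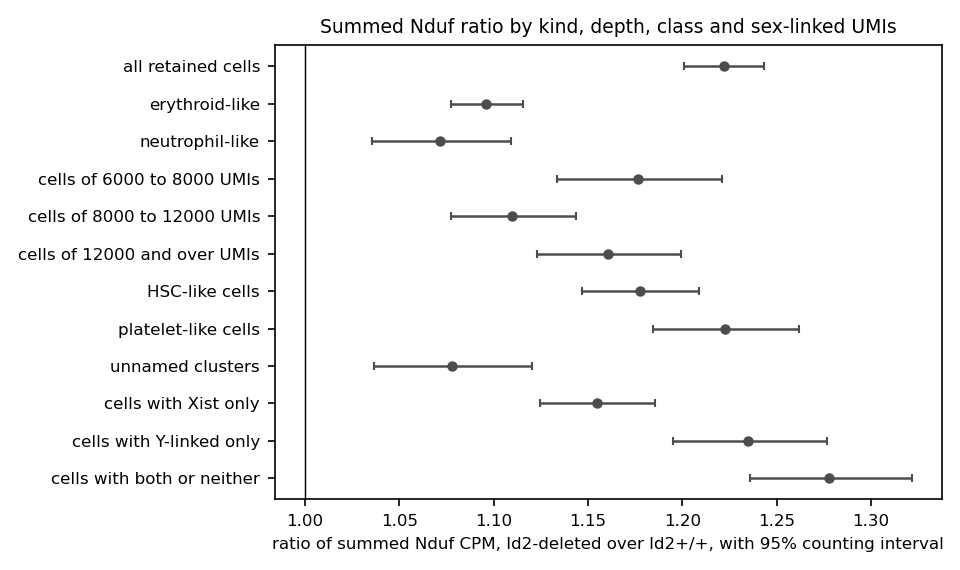
Ratio of summed Nduf CPM, Id2-deleted over Id2+/+, with the 95% counting interval, in 3 cell kinds and in retained cells split by UMIs per cell, by class and by sex-linked UMIs. All points lie above 1 and range from 1.07 in neutrophil-like cells to 1.28 in retained cells with both or neither of the sex-linked signals.

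Within each library, Nduf content followed markers of the state of the cell only in part. Cells were split by whether they held a UMI of a gene, at 5800 UMIs each. Free RNA, put at 10.5% and 5.41% of the UMIs of retained cells, can also supply such a UMI, so these are not splits by state. retained cells with Hlf, a transcription factor of quiescent stem cells, had less Nduf RNA than those without it in both libraries, at 7620 against 8341 CPM and 9121 against 9974 CPM, with ratios of 0.914 (0.876 to 0.953) and 0.914 (0.890 to 0.939). retained cells with Mki67, expressed in cycling cells, had more, with 1.10 (1.05 to 1.16) and 1.04 (1.01 to 1.08). Those with Cd34 stood at 0.960 (0.921 to 1.0003) and 0.967 (0.943 to 0.993) of those without, and those with Pf4, a platelet gene, at 0.998 (0.958 to 1.04) and 1.08 (1.05 to 1.11). At thinned depth a cell's Nduf UMIs went with its UMIs for the 35 nuclear genes of complexes III to V, with Pearson's r of 0.507 over 196 Id2+/+ retained cells and 0.613 over 416 Id2-deleted retained cells, and with 0.236 and 0.432 within HSC-like cells. With the 7 mitochondrially encoded complex I genes r was 0.0768 and 0.160, and with cytosolic ribosomal protein genes it was -0.375 and -0.417. Within HSC-like cells (124 and 185) these became -0.0390 and -0.0354, and -0.140 and -0.238. These describe cells of 1 library each, which share a fixed total of UMIs.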

How the data were processed

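Each library was deposited as raw counts of UMIs for 27998 genes and 737280 barcodes, without a call of cells. The submitters' processing notes name Cell Ranger 2.2.0 and mm10 without their roles, and how reads shared with pseudogene copies were counted is not given in the sources used here. Members and lists were chosen with earlier results of these data known.

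Barcodes with at least 10% of the UMIs at the 99th percentile of the 1000 deepest were called (349 and 632, with 47.7% and 69.3% of UMIs; the labels give 383 and 686 cells), and those at or over 10% mitochondrial UMIs were dropped. Cells were clustered with scanpy 1.11.5 (2000 variable genes without Nduf genes, 20 components, 15 neighbours, Leiden resolution 1). A cluster was named another type when at least 4 of its markers (3 for haemoglobin) were up by over 1 on the log2 scale and found in 25% of cells or more. Scrublet marked 2 of 333 and 1 of 625 cells, too few to count as a working call of doublets, and no doublets were removed.

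Counts were summed over cells, and CPM carried exact Poisson intervals. Ratios had exact conditional intervals and shares had Clopper-Pearson intervals, at 95%. Log2 ratios had 0.5 added to each count. Fold thresholds were 1.2 between genotypes and 1.5 between kinds. On simulated Poisson counts of 10458 genes with 200 changed by a fold of 2 for the comparison of retained cells, 96.1% of intervals held the true ratio. This checks the computation only, since the intervals assume such counts and real cells varied more than that. edgeR 4.0.16 and DESeq2 1.42.0 gave alternative scalings only. Coordinates are from RefSeq on GRCm38.p6, the assembly behind mm10. Named genes were the core subunits (1 is not reported here by name and not plotted, but stays in the sums), Ndufa4 and Ndufa4l2, X-linked members, and per role those with most UMIs and with the highest and lowest ratio, the 5 highest and lowest erythroid folds, and the extremes of other lists, at 200 UMIs or more.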

Additional observations from a re-analysis of the deposited data

Results flagged for a closer look

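In 7 of 44 members the ratio of Id2-deleted to Id2+/+ lay above 1 in retained cells and below 1 in erythroid-like cells, or 15.9%, a share near the 16.9% of 8518 genes, so the count says nothing particular about the members. The difference was not tested. Ndufaf2 stood at 1.26 in retained cells and 0.808 in erythroid-like cells, Ndufaf1 at 1.29 and 0.937, and Ndufaf6, also an assembly factor, at 1.17 and 0.902. Ndufs3 stood at 1.14 and 0.988, Ndufa7 at 1.16 and 0.996, Ndufv3 at 1.21 and 0.966, and Ndufa3 at 1.10 and 0.956. The erythroid-like intervals of all 7 included 1, as did the retained-cell intervals of Ndufaf1 (0.960 to 1.74), Ndufaf6 (0.846 to 1.65) and Ndufs3 (0.996 to 1.32), and Ndufaf2 had the widest gap (0.640 to 1.03 against 1.03 to 1.55). Ndufaf6, Ndufa7 and Ndufv3 are named here for their values.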

How the results depend on the processing

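No paired analysis was possible because there was 1 library of either genotype, and no replicate could be left out. The summed ratio in retained cells (1.22) stayed above 1 under all 20 alternatives, at 1.08 to 1.34. It was 1.32 with TMM and 1.34 with DESeq2 size factors, 1.19 with cells thinned to one depth, 1.16 in cells of 6000 to 10000 UMIs, 1.15 in Xist-only cells, and, in alternatives chosen after seeing the data, 1.18 in HSC-like cells, 1.08 in unnamed clusters and 1.17 at the class shares of Id2+/+. The median log2 ratio (0.29) became in the same order 0.40, 0.43, 0.25, 0.20, 0.21, 0.23, 0.0861 and 0.23, and 0.26 both with cells weighted equally and in Y-linked-only cells. The 27 members at 1.2 or more (16.6% of genes) became 14 in cells of 6000 to 10000 UMIs (20.6%), 15 in Xist-only cells (22%) and 10 in unnamed clusters (27.4%). They became 16 at the class shares of Id2+/+ (15.2%), 0 at a fold of 1.5, and 18 to 40 at other settings. TMM and DESeq2 size factors gave 39 and 40 while raising all genes alike. The 0 members at 1/1.2 or less (32.1% of genes) became 1 with thinning, 1 in Xist-only cells, 2 in Y-linked-only cells and 2 in unnamed clusters. For settings without a share given here or earlier, the share of all genes was not computed. The ratio of erythroid-like to retained cells was 1.36 (Id2+/+) with no mitochondrial limit, 1.23 (Id2-deleted) with CPM without mitochondrial, ribosomal and haemoglobin genes, 1.26 (Id2-deleted) with barcodes of at least 1000 UMIs and 500 genes, 1.43 and 1.28 with cells weighted equally, 1.44 and 1.29 with thinning, and 1.44 and 1.27 with the empty-droplet profile subtracted.

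Of 460 alternative values for 23 named members, 441 lay above 1 and 19 below. Of these 19, 9 belonged to members whose interval lay above 1 as reported: Ndufa13 in platelet-like cells (0.972), Ndufa2 (0.947) and Ndufaf2 (0.975) in unnamed clusters, Ndufa3 with no cell type removed (0.983) and in Xist-only cells (0.896), Ndufaf4 in cells of 6000 to 10000 UMIs (0.945) and in Y-linked-only cells (0.766), Ndufs6 in cells of 6000 to 10000 UMIs (0.958) and Ndufv2 in HSC-like cells (0.985). The other 10 belonged to members whose interval included 1: Ndufs1 in cells of 6000 to 10000 UMIs (0.845), in HSC-like cells (0.915) and with thinning (0.997), Ndufa6 in unnamed clusters (0.886), in Y-linked-only cells (0.906) and with no cell type removed (0.993), Ndufaf7 in unnamed clusters (0.763), in Y-linked-only cells (0.852) and in HSC-like cells (0.995), and Ndufaf1 in unnamed clusters (0.981). The cause was not tested. The pooled mice of each genotype make 1 sample, so genotype, library, depth and free RNA cannot be told apart. For assembly factors, with 16 to 87 CPM, the counting intervals limit any single ratio. The cells of each library also differed in class, sex and depth, and these were varied one at a time only.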
